A study of Mus musculus with 4 samples.

Results

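The collagen genes and the genes for the proteins that fold, modify, trim and crosslink collagen were examined in mouse nasal process (NP) tissue at E11.5, when the processes that form the nose and the middle of the face are growing. Members were chosen by a rule on gene symbols, with earlier results of these data known. They numbered 49 of the 13577 genes listed: 35 collagen genes and 14 genes for collagen enzymes and their helpers. By class there were 7 fibrillar collagens, 6 collagens of cartilage type, 8 of the basement membrane, 14 other collagens and the 14 enzymes.

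The study compared 2 libraries titled control with 2 titled ca-Acvr1(A11) mutant. ACVR1 is a type I BMP receptor, and ca-Acvr1(A11) is a transgenic line in which a constitutively active form of it, behind a CAG promoter, is switched on by Cre. Per the study's methods and labels, mutant embryos carry the transgene together with P0-Cre, which acts in cells of the neural crest and their descendants, and controls carry P0-Cre without it. P0-Cre is therefore shared by both groups. The genotype entries in the labels name the groups the other way round from the titles. The titles were followed here, and every direction below would be opposite if the genotype entries were right. No label says whether the libraries came from separate embryos, so p-values measure only the spread between these samples, which may be technical. Acvr1 itself did not separate the groups, with 21.5 and 23.1 CPM in control libraries against 24.1 and 12.6 CPM in mutant libraries (log2 fold change -0.33, limma adjusted p = 0.786). Whether the counted 3′ tag lies in the transgene's transcript is not given in the sources used here, so this value checks neither set of labels.

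Values are CPM, a unit that gives the reads of a gene relative to all reads of the library it came from. The libraries were made with the QuantSeq 3′ kit, which gives a tag near the end of each transcript, so CPM does not grow with transcript length. How well the tag of each gene is captured and annotated was not tested. Ppib, a widely expressed gene for a collagen-folding isomerase, had 1 and 0 reads in control and 1 and 3 reads in mutant libraries, so a level here is that of the counted tag, and differences in level between genes are given as such. Library totals were between 1956831 and 2408827 reads, and 1 read was worth 0.415 to 0.511 CPM. Overlap with other genes was checked in the last 500 bases of the last protein-coding exon, or in the whole exon where it is shorter. For Col6a3 that exon runs only from 90765923 to 90765933. In the annotation of the GRCm38 build, this stretch overlaps no other gene's exon for 46 of the 49 members. The exceptions are Col4a3, Col9a3 and Loxl3, each with a gene on the opposite strand.

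Collagens are built from 3 chains wound into a triple helix. Fibrillar collagens pack into the fibres of skin, bone and loose mesenchyme, while network-forming collagens such as type IV make the sheet under epithelia and around vessels. In the endoplasmic reticulum, prolyl and lysyl hydroxylases modify the chains and the chaperone encoded by Serpinh1 accompanies the helix. Outside the cell, proteinases such as BMP1 remove the end pieces and lysyl oxidases crosslink the fibres.

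Upstream sequence is shown first for the members that passed the test below and have an entry in the RefSeq promoter table, so that the letters of their start regions can be compared. These are bases of the 250 before the RefSeq start, on the GRCm38.p6 build and the plus strand. Bases that lie in an annotated exon were left out. Capitals mark matches to TATAAA in Col3a1 and to GGGCGG, read on either strand, in Col8a2 and Col1a2. Col3a1 is at chr1:45311288-45311537, Col8a2 at chr4:126286544-126286792, and the Col1a2 stretch at chr6:4505370-4505492. That stretch is upstream of the RefSeq start only, since in GENCODE the Col1a2 gene begins further upstream, at 4504814, and the stretch lies inside it and outside its annotated exons.
Col3a1: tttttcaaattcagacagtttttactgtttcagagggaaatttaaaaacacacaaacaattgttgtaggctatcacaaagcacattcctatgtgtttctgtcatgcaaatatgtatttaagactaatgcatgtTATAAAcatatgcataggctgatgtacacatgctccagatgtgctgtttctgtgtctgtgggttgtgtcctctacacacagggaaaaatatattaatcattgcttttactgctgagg
Col8a2: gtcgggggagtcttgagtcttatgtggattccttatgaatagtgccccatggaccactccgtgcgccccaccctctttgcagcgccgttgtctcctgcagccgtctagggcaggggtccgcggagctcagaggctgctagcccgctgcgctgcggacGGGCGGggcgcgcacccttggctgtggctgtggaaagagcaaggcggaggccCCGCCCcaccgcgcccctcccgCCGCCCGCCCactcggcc
Col1a2: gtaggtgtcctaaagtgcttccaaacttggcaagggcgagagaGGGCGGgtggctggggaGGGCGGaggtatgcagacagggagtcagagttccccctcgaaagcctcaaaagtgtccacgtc

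The Col3a1 window is poor in G and C (35.2%) and holds its TATAAA match 117 bases before the start. The Col8a2 window is 70% G and C and holds 4 GGGCGG matches, at 93, 41, 19 and 15 bases before the start, of which the last pair overlap. Col1a2 has 2 such matches, at 205 and 188 bases, in a window that is 62% G and C. The Col1a2 window also holds a CCAAT match 109 bases before the start, in the part not printed above. The median over all 32851 promoters was 52.4%. A promoter entry was found for 34 member genes, with 37 windows. GGGCGG was found on either strand in 67.6% of the member windows and in 32.7% of all promoters. CCAAT was in 35.1% and 33.8%, TATAAA in 8.11% and 12.4%, and GGCGCC, the letters of a GC-rich SMAD element, in 16.2% and 9.59%. None of the windows printed above holds GGCGCC. A match is only a run of letters, and no factor's binding was measured.

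Of the 49 members, 46 had a mean above 1 CPM and entered the test, limma on log2(CPM + 1) over 12462 genes. Col5a3, Col6a4 and Col24a1, with 6, 8 and 7 reads over all libraries, did not. Among the members tested, 5 fell at a limma adjusted p under 0.05, where 0.594% of all genes tested fell. These were Col1a2, Col8a2, Col1a1, Col26a1 and Col3a1. edgeR and limma-voom on the recovered reads called the same 5 genes, and DESeq2 called 2 of them, Col1a2 and Col8a2, so that by these tools too 0 of the cartilage type, basement membrane and enzyme genes were called. By the same test 0 members rose, against 0.305% of all genes, and edgeR and DESeq2 on the recovered reads also called 0 higher. At an unadjusted limma p under 0.05 there were 13 lower members, with 4.12% of all genes as background, and 2 higher, with 5.42%. edgeR gave 12 lower and 1 higher of 32 members tested by that rule, and DESeq2 gave 9 lower and 0 higher of 49. For these tools the share over all genes by that rule was not computed. The limma shares are not their background, since edgeR tested 10168 genes. Both mutant libraries lay below both control libraries for 19 of the 46 members (16.8% of all genes) and above them for 3 (21.9% of all genes). The estimated change was below 0 for 35 members and above 0 for 11. Its median was -0.27 on the log2 scale, where that over all genes tested was 0.03.

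**Figure D1:**
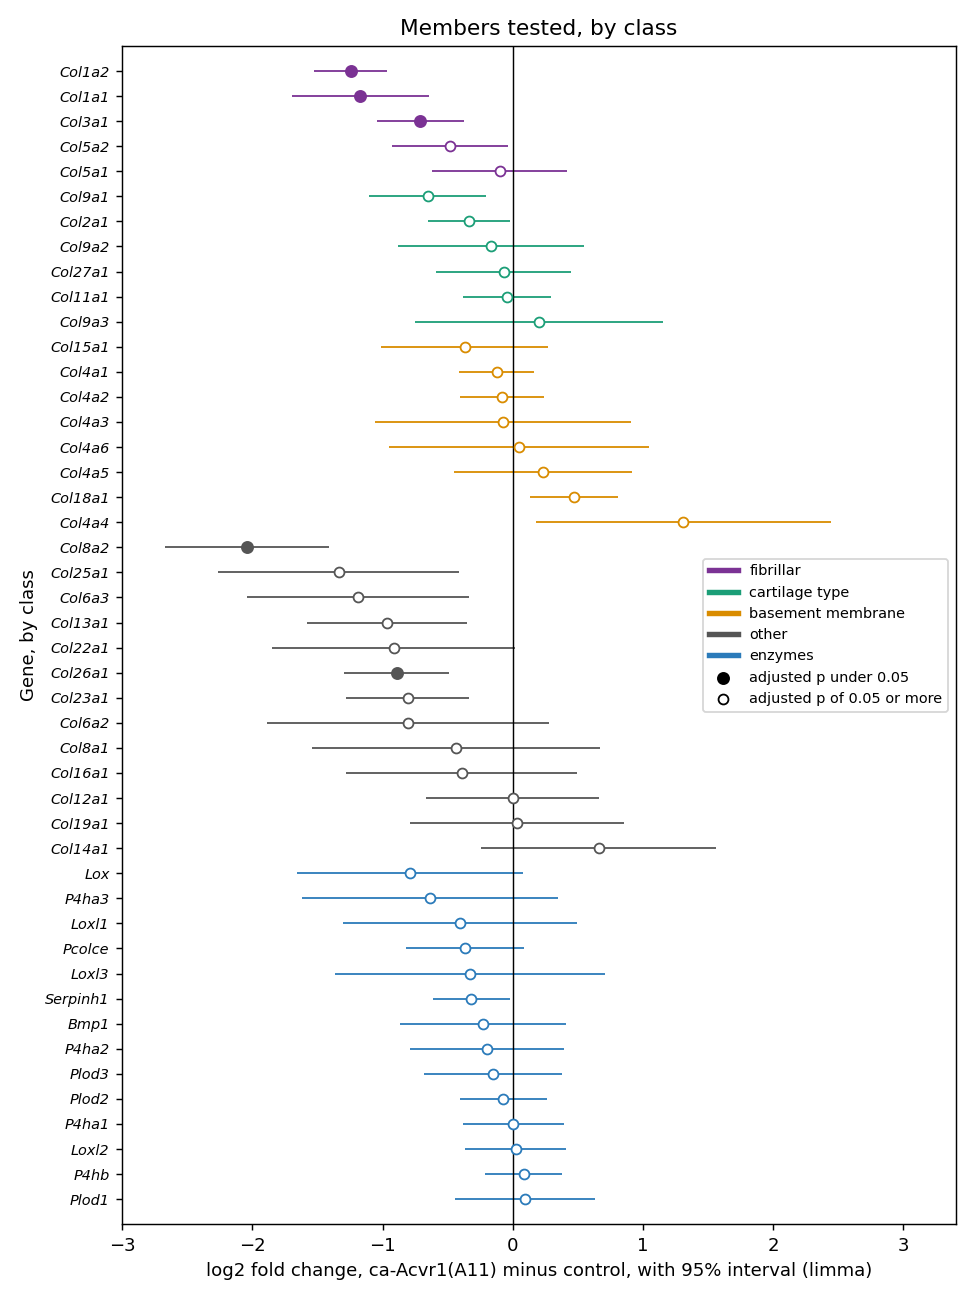
Log2 fold change of each of the 46 members tested, ca-Acvr1(A11) minus control, on log2(CPM + 1), with the 95% interval from limma, in 5 classes by colour. Filled points are the 5 members with an adjusted p under 0.05, all to the left of 0, from -2.04 for Col8a2 to -0.71 for Col3a1, and the class medians are -0.71 for fibrillar, -0.01 for basement membrane collagens and -0.21 for enzymes.

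Summed over all 35 collagen genes, the libraries held 1817 and 2087 CPM in control libraries against 1269 and 1326 CPM in mutant NPs. The sum was lower in both mutant libraries, at 0.665 of the control mean. Most of that difference lay in a pair of genes, Col1a2 and Col3a1, which together made 46.0% and 50.5% of collagen CPM in control libraries and 34.5% and 37.0% in mutant libraries. In bulk tissue, fewer cells of a type and less RNA per cell cannot be told apart, and this holds for every value below.

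The fibrillar collagens form the tensile fibres of connective tissue. Of the 5 tested in this class, 3 fell by limma, where 0.594% of all genes tested fell. Col2a1, Col11a1 and Col27a1 also encode fibril chains but were counted in the cartilage type class. Their log2 fold changes were -0.33, -0.05 and -0.07, and none was called, so the counts and median here do not cover all fibril-forming collagens. Col1a2, the alpha 2 chain of type I collagen, had the highest CPM of the members, with 540.2 and 617 CPM in control libraries against 246 and 240.1 CPM in mutant libraries. Behind these stand 1057 and 1390 reads against 592 and 513. The groups were far apart compared with their spread, with means of 579 ± 54.4 (SD, n = 2) and 243 ± 4.04 (SD, n = 2). Col1a2 fell by 1.25 on the log2 scale (SE 0.14, limma adjusted p = 1.75e-06). The gene lies at 4504814 to 4541544 on chromosome 6.

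Col1a1 encodes the partner chain of the same fibre, which in the protein outnumbers the alpha 2 chain. It had far fewer counted reads, with 29.6 and 35.1 CPM in control libraries against 11.2 and 16.8 CPM in mutant libraries. The groups did not overlap, and Col1a1 fell by 1.17 (SE 0.26, limma adjusted p = 0.0171). Its log2 fold change lay within 1 SE of that of Col1a2. Per library, Col1a2 had 18.2 and 17.6 times the CPM of Col1a1 in control and 21.9 and 14.3 times in mutant NPs. These ratios overlap between the groups.

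Col3a1, the single chain of type III collagen of soft and young tissues, had the next highest CPM, 296 and 437 CPM in control libraries against 193 and 249.9 CPM in mutant libraries. The control replicates differed from each other by more than the lower of them differed from the higher mutant library. Col3a1 fell by 0.71 (SE 0.16, limma adjusted p = 0.0271). The ratio of Col1a2 to Col3a1 was 1.83 and 1.41 in control and 1.28 and 0.961 in mutant libraries, so Col3a1 was at or above the level of Col1a2 in 1 mutant library and in no control library.

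The remaining genes tested in the fibrillar class encode chains of type V collagen, which is built into type I fibres and sets their width. Col5a2, which lies tail to tail with Col3a1 on chromosome 1 at a distance of 24615 bases, had 43.9 and 50.6 CPM in control libraries against 41.9 and 26.7 CPM in mutant libraries (log2 fold change -0.48, limma adjusted p = 0.464). The groups did not overlap, but mutant replicate 1 lay close to control replicate 1. Col5a1 overlapped, with a log2 fold change of -0.10. The fibrillar sum was 932 and 1169 CPM in control libraries against 512 and 560.1 CPM in mutant libraries, and the median log2 fold change of the class was -0.71.

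**Figure D2:**
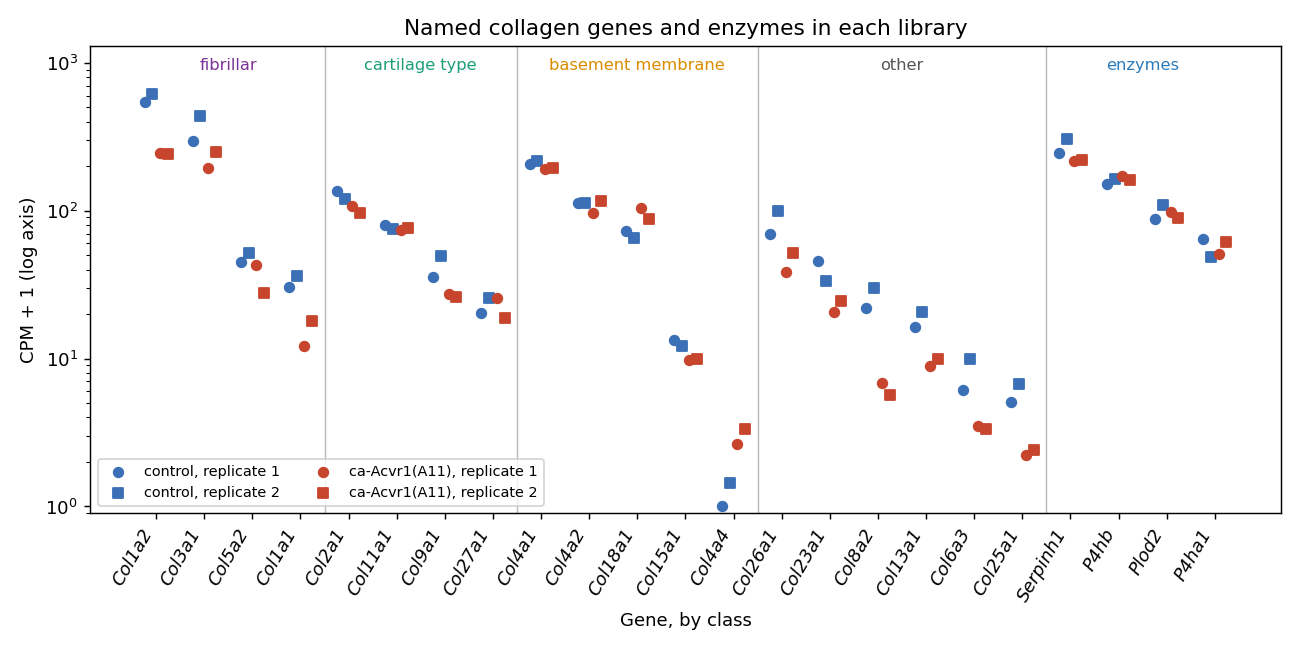
CPM + 1 on a log axis in each of the 4 libraries for the named collagen genes and enzymes, grouped by class, with blue for control, red for ca-Acvr1(A11), circles for replicate 1 and squares for replicate 2. Col1a2 sits at 540.2 and 617 CPM in control and at 246 and 240.1 CPM in mutant libraries, while Col4a1, Col11a1 and P4hb lie nearly level across all 4.

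Among the other collagens, 2 of 13 tested fell by limma, where 0.594% of all genes tested fell. Col8a2 encodes a short-chain network collagen best known from the membrane under the corneal endothelium. It was at 21.0 and 28.9 CPM in control libraries against 5.81 and 4.68 CPM in mutant libraries, or 41 and 65 reads against 14 and 10. The control mean was 4.75 times the mutant mean, the widest gap among the members called. Col8a2 fell by 2.04 (SE 0.31, limma adjusted p = 0.000305). Its partner chain gene Col8a1 was near the detection limit, with 8 and 2 reads in control and 2 and 4 reads in mutant libraries, and the groups overlapped. Col8a2 lies at 126286793 to 126314330 on chromosome 4.

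Col26a1 encodes a small collagen with an EMI domain. It was at 68.5 and 98.1 CPM in control libraries against 37.8 and 50.5 CPM in mutant libraries, with no overlap. It fell by 0.89 (SE 0.20, limma adjusted p = 0.0171). It is on the minus strand of chromosome 5, at 136741759 to 136883209.

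A group of 4 other members in this class were lower at an unadjusted p under 0.05 (4.12% of all genes) but missed the adjusted threshold. Of these, Col23a1, Col13a1 and Col25a1 encode transmembrane collagens, which sit in the plasma membrane and can be shed from it. Col23a1 had 45.0 and 32.4 CPM in control libraries against 19.5 and 23.4 CPM in mutant libraries (log2 fold change -0.81, limma adjusted p = 0.116). Col13a1 had 15.3 and 19.5 CPM against 7.89 and 8.89 CPM (log2 fold change -0.97, limma adjusted p = 0.179). Col25a1 rested on few reads, 8 and 13 against 3 and 3 (log2 fold change -1.34, limma adjusted p = 0.251). In all 3 the mutant libraries lay below the control libraries, as they did for 16.8% of all genes tested. Col6a3, a chain of the beaded filaments of type VI collagen, had 10 and 20 reads in control and 6 and 5 reads in mutant libraries (log2 fold change -1.19, limma adjusted p = 0.281). The other 7 tested ranged from -0.92 for Col22a1 to 0.66 for Col14a1, a collagen that coats fibrils, with none at more than 15 CPM in any library. Over the class the estimate was below 0 for 11 of 13, with a median of -0.81, and the sum was 195 and 224 CPM in control libraries against 103 and 121 CPM in mutant libraries.

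Of the 6 collagens of cartilage type, 0 passed the limma test in either direction. At an unadjusted p under 0.05, 2 were lower, with 4.12% of all genes as background. The genes of this class encode the fibril of cartilage (Col2a1, with Col11a1 and Col27a1) and the type IX collagen on its surface. Col2a1 had 134 and 119.9 CPM in control libraries against 106 and 95.0 CPM in mutant libraries (log2 fold change -0.33, limma adjusted p = 0.483). Col9a1 had 34.8 and 48.4 CPM against 26.2 and 25.3 CPM (log2 fold change -0.65, limma adjusted p = 0.237). In both genes the mutant libraries were the lower ones, as in 16.8% of all genes tested. Col11a1 was almost level, with 78.7 and 74.6 CPM in control libraries against 72.6 and 75.8 CPM in mutant libraries, and the 95% interval of its log2 fold change ran from -0.38 to 0.29. Col27a1 overlapped too, at -0.07. The median of the class was -0.12. Sox9, the transcription factor of the chondrocyte lineage, was at 673 and 622 CPM in control libraries against 526 and 529.7 CPM in mutant libraries (log2 fold change -0.29, limma adjusted p = 0.476). Runx2, needed for bone formation, had 4 and 9 reads against 4 and 4. Of the list of 10 cartilage and bone cell markers, 7 were listed and tested, and 0 were called by limma. At an unadjusted p under 0.05, 2 of them were lower, with 4.12% of all genes as background. The estimate was below 0 for 5 of the 7, with Sox5 at -0.01. It was above 0 for 2, Sox6 at 0.18 and Alpl at 0.24.

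Among the 8 basement membrane collagens tested 0 passed the limma test, and the median was -0.01. At an unadjusted p under 0.05, 0 were lower and 2 higher, where 4.12% and 5.42% of all genes tested were. Col4a1 and Col4a2 encode the chains of the common type IV collagen and share a start region on chromosome 8, where their starts lie 21 bases apart. Col4a1 had 206 and 214 CPM in control libraries against 192 and 194 CPM in mutant libraries, with an interval from -0.41 to 0.16. Col4a2 had 111 and 111 CPM in control libraries against 95.5 and 116 CPM in mutant libraries, with an interval from -0.40 to 0.24. These intervals leave out a decrease of the size measured for Col1a2. The ratio of Col4a1 to Col4a2 stayed between 1.68 and 2.01 in the 4 libraries. The sum over the class was 413 and 416 CPM in control libraries against 415 and 422 CPM in mutant libraries.

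Col18a1, whose product carries the endostatin domain, had the highest CPM of the members with an estimate above 0 and no overlap. It had 71.5 and 64.8 CPM in control libraries against 103 and 87.0 CPM in mutant libraries. Its log2 fold change of 0.47 had an interval from 0.13 to 0.81 and missed the adjusted threshold (limma adjusted p = 0.288). Col4a4, which lies head to head with Col4a3, had 0 and 1 read in control and 4 and 5 reads in mutant libraries (limma adjusted p = 0.424). Counts this low carry no useful fold. Col15a1, a relative of Col18a1, had 12.3 and 11.1 CPM against 8.72 and 8.89 CPM (log2 fold change -0.37).

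The enzymes and helpers gave 0 calls among 14 tested by limma. At an unadjusted p under 0.05, where 4.12% of all genes were lower and 5.42% higher, 1 was lower and 0 higher. The lower gene was Serpinh1, the collagen chaperone HSP47, at 244 and 303 CPM in control libraries against 217 and 219 CPM in mutant libraries (log2 fold change -0.32, limma adjusted p = 0.467). Relative to Col1a2, Serpinh1 stood at 0.451 and 0.491 in control and 0.882 and 0.910 in mutant libraries, with no overlap. The fall of Col1a2 itself raises this ratio for any gene that fell less, so it is no separate result on Serpinh1.

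Prolyl 4-hydroxylase, the enzyme whose product keeps the triple helix stable at body temperature, is built from a beta subunit and a catalytic subunit with several genes. Its beta subunit gene P4hb had 151 and 162 CPM in control libraries against 171 and 161 CPM in mutant libraries, with an interval from -0.21 to 0.38. The catalytic subunit gene P4ha1 had 62.9 and 47.5 CPM against 49.8 and 60.4 CPM, with a log2 fold change of 0.00 and an interval from -0.38 to 0.39. The sign of the P4ha1 estimate changed with the scaling. The other catalytic subunit genes had estimates below 0. P4ha2 was at 13.3 and 15.1 CPM in control libraries against 13.3 and 11.2 CPM in mutant libraries (log2 fold change -0.20, limma adjusted p = 0.904), and P4ha3 had 4 and 11 reads against 5 and 3 (log2 fold change -0.64, limma adjusted p = 0.749).

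Of the lysyl hydroxylases, which mark lysines for crosslinks, Plod2 had the highest CPM, with 87.4 and 109 CPM in control libraries against 97.1 and 88.4 CPM in mutant libraries and a log2 fold change of -0.07. Plod1 and Plod3 also overlapped. Among the lysyl oxidases, Loxl2 was at 0.02. Lox had 8 and 25 reads in control and 8 and 8 reads in mutant libraries, so that its estimate of -0.79 rests on 1 control library. Pcolce, which speeds the removal of the C-terminal propeptide, was at -0.37, and Bmp1, the proteinase that removes it, at -0.23 with overlapping groups. The enzyme sum was 698 and 792 CPM in control libraries against 678 and 671 CPM in mutant libraries.

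**Figure D3:**
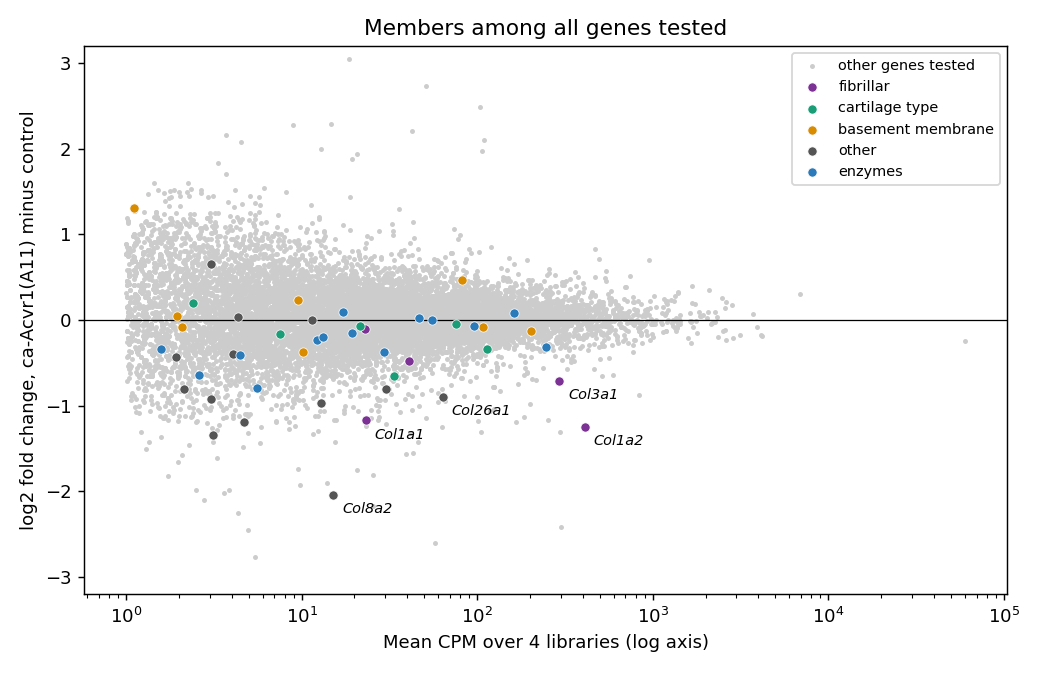
Log2 fold change (ca-Acvr1(A11) minus control, on log2(CPM + 1)) against mean CPM over the 4 libraries on a log axis, with the members coloured by class over all 12462 genes tested in grey. Col1a2 and Col3a1 are the members furthest to the right, at -1.25 and -0.71, and Col8a2 is the lowest member at -2.04.

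A list of 39 further genes of collagen folding, secretion, turnover and sensing was examined beside the members. Of these, 23 were listed and 21 tested. By limma 0 were called, and the median was -0.17. At an unadjusted p under 0.05, 3 were lower and 2 higher, with 4.12% and 5.42% of all genes as background. edgeR on the recovered reads called 1 of these further genes, Ddr2, and DESeq2 called 0. Ddr2, a receptor for fibrillar collagen on mesenchymal cells, had 89.9 and 114 CPM in control libraries against 65.6 and 60.8 CPM in mutant libraries (log2 fold change -0.67, limma adjusted p = 0.0531). Its epithelial relative Ddr1 had 204 and 161 CPM against 219 and 251 CPM (log2 fold change 0.37, limma adjusted p = 0.389), so the estimates of the 2 receptors lay on opposite sides of 0.

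Of the collagen-degrading proteinases, Mmp14 had 108 and 91.0 CPM in control libraries against 78.5 and 66.4 CPM in mutant libraries (log2 fold change -0.45, limma adjusted p = 0.318). Ctsk had 3 and 12 reads against 1 and 3. Sparc, a secreted collagen-binding protein, was at 256 and 223 CPM in control libraries against 281 and 351 CPM in mutant libraries (log2 fold change 0.39, limma adjusted p = 0.317). Creb3l1, a transcription factor of secretory cells, had an estimate of 0.72 at a few CPM (limma adjusted p = 0.726).

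Markers of cell types were examined beside the collagens, and the lists differed in direction. Of 10 mesenchyme markers 7 fell by the limma test, among them Prrx1, Twist2 and Alx1, with a list median of -0.86. Over all genes tested 0.594% fell. The marker lists were chosen with earlier results of these data known, so these counts serve as description only. Meis2 of the mesenchyme list had values in the other direction, 274 and 257 CPM in control libraries against 362 and 362 CPM in mutant libraries (log2 fold change 0.44, limma adjusted p = 0.169). The summed level of the mesenchyme list was 1628 and 1833 CPM in control libraries against 1182 and 1185 CPM in mutant libraries. Of 10 epithelium markers 2 rose (Cdh1 and Epcam), where 0.305% of all genes tested rose. The epithelium sum was 248 to 259 CPM in control and 380.4 to 409 CPM in mutant libraries. The neural sum was 1442 to 1461 CPM in control and 1809 to 1933 CPM in mutant libraries, with 0 of 10 called by limma. At an unadjusted p under 0.05, 5 neural markers were higher, where 5.42% of all genes tested were. The macrophage sum was 47.5 to 48.0 and 76.4 to 105 CPM with 1 of 9 called, Cx3cr1, higher. The endothelium sum overlapped, at 222 to 231 and 212 to 226 CPM, and the erythroid sum overlapped too, with 0 called by limma in either list. The muscle sum was 45.0 to 49.7 CPM in control and 33.2 to 44.4 CPM in mutant libraries, with 0 of 5 called. No marker of the mesenchyme, epithelium, endothelium or neural lists was at 0 in any library.

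Levels relative to the mesenchyme markers differed between members, and the answer for Col1a2 turned on which marker was used. Divided by the summed list, Col1a2 was at 0.332 and 0.337 in control and 0.208 and 0.203 in mutant libraries. Tfap2b and Meis2 supplied 23.5% and 21.5% of that sum, and neither passed the test. Meis2 was higher and Tfap2b lower in both mutant libraries, with log2 fold changes of 0.44 and -0.45. Divided by Prrx1 alone, Col1a2 was at 2.41 and 2.56 in control and 2.60 and 2.22 in mutant libraries, which overlap. Over the 10 markers taken singly, the Col1a2 ratio was lower in both mutant libraries for 6, higher for 1 and overlapping for 3.

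Col8a2 was lower in both mutant libraries relative to each of the 10 markers. Against Prrx1 it was at 0.0934 and 0.120 in control and 0.0614 and 0.0433 in mutant libraries. Col3a1 had a lower ratio for 1 marker, a higher one for 4 and overlap for 5. Col26a1 overlapped for 7, with a lower ratio for 2 and a higher one for 1. Col1a1 overlapped for 6, with a lower ratio for 4 and a higher one for 0. For Col18a1 the ratio to Epcam was 1.21 and 0.918 in control and 0.932 and 0.842 in mutant libraries, which overlap. Epcam was 1 of the 2 epithelium markers called higher, and no ratio to the rest of that list was computed. Krt14 and Krt8 of that list had log2 fold changes of -0.25 and -0.03, so the Epcam ratio does not stand for the list. Whether the ratios to its other markers overlap was not tested. The part of the change in mesenchyme and epithelium markers in the collagen values was not tested beyond these ratios, which were computed after the values had been seen.

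**Figure D4:**
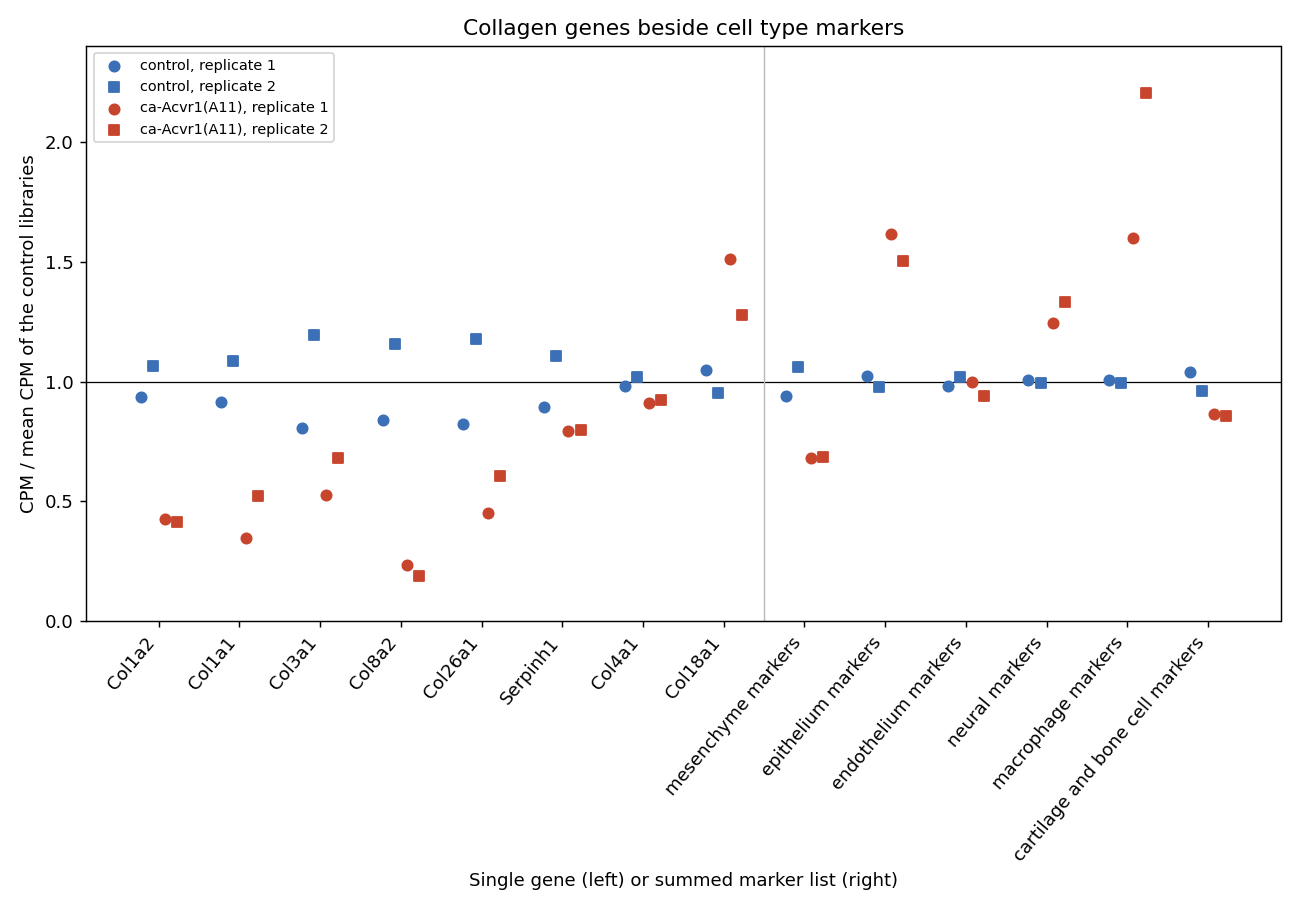
CPM of 8 members (left) and summed CPM of 6 cell type marker lists (right) in each library, divided by the mean of the control libraries, with blue for control, red for ca-Acvr1(A11), circles for replicate 1 and squares for replicate 2. The mesenchyme sum is lower in both mutant libraries (1182 and 1185 CPM against 1628 and 1833 CPM), Col8a2 lies further down than that sum, and Col4a1 is close to 1.

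How far the calls rest on single libraries differed between the 5 genes. Col1a2 and Col8a2 passed the limma test whichever library was left out, with log2 fold changes from -1.34 to -1.15 and from -2.26 to -1.82. Col1a1, Col3a1 and Col26a1 lost the call without control replicate 2 (limma adjusted p = 0.0799, 0.268 and 0.225), where Col3a1 moved to -0.43. They also lost it without mutant replicate 1 (limma adjusted p = 0.177, 0.332 and 0.186) and with DESeq2 (adjusted p = 0.260, 0.0584 and 0.139). Without control replicate 1, Col9a1 passed (limma adjusted p = 0.0220), and without control replicate 2 Col23a1 did (limma adjusted p = 0.0204).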

How the data were processed

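Total RNA from E11.5 NP tissues was sequenced with the QuantSeq 3′ kit, with 2 libraries per group. The submitters' processing notes name STAR, featureCounts 1.6.4, DESeq2 and the mm10 build. The authors deposited CPM values scaled to library totals for 13577 genes, with 33470 empty lines and 0 columns left unused. Of these values, 99.9% were whole reads within 0.02 reads, so reads were recovered. The values that were not whole lay in 22 genes, 0 of them members.

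Members, lists and tests were chosen with earlier results of these data known. Genes with a mean above 1 CPM were tested with limma 3.58.1 (R 4.3.3, mean-variance trend) on log2(CPM + 1), with Benjamini-Hochberg adjustment over 12462 genes at 0.05. Intervals are 95%. Fold changes on this scale understate those of low genes. A permutation test of 2 against 2 libraries cannot go below p = 0.333. Named genes were all members called, all at an unadjusted p under 0.05, the 4 with the highest mean CPM of each class, and of the further pathway genes the 3 with the smallest p in each direction; other members are named for context. Alternatives were pseudocount 0.1, no filter, a mean above 10 CPM, TMM and RLE scaling, edgeR 4.0.16 (which called 133 genes, 39 higher and 94 lower), DESeq2 1.42.0 and limma-voom on recovered reads, a replicate block, omission of the 22 genes, and omission of each library. Tested on simulated data for this comparison with 12403 genes, limma recovered 74% of 50 genes changed by -1.5, 58% at -1, 10% at -0.5 and 66% at +1. The simulation used 1 common dispersion and drew the changed genes from a higher mean CPM than the filter of the test. Recovery for genes of low CPM was therefore not measured. Positions come from GENCODE vM21 (GRCm38, the assembly of mm10) and upstream sequences from RefSeq. Python 3.11.15, numpy 2.4.6, pandas 2.3.3 and matplotlib 3.10.9 were used. Single values of 1 marker gene are not reported here.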

Additional observations from a re-analysis of the deposited data

How the results depend on the processing

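With 2 libraries per group and few reads on many members, a difference under about 1 on the log2 scale was often not detectable, and Col4a4, Col25a1, Ctsk and Runx2 rest on a few reads. Of the members, 5 were called lower, 2 with DESeq2 and 2 to 6 with 1 library left out. For members called higher the count was 0 in each alternative run. For the further pathway genes the count of 0 became 1 (Ddr2) with no filter, TMM scaling, RLE scaling, edgeR and limma-voom, and ranged from 0 to 3 with 1 library left out. Over all genes, the 112 called became 39 with DESeq2 (31 lower and 8 higher) and 93 to 465 with 1 library left out (54 to 225 lower, 31 to 240 higher), and the 38 called higher became 25 at a mean above 10 CPM. Without control replicate 1, 465 genes were called. Col3a1 missed the threshold with pseudocount 0.1 (limma adjusted p = 0.0539) and at a mean above 10 CPM (0.0625). P4ha1, at 0.00, turned to -0.025 with TMM scaling, -0.024 with RLE scaling, -0.018 with edgeR, -0.031 with DESeq2 and -0.0087 with limma-voom, and ranged from -0.19 to 0.20 with 1 library left out. The same omissions gave -0.29 to 0.15 for Col27a1, -0.23 to 0.084 for Plod2 and -0.22 to 0.055 for Col4a2. The cause of these changes was not tested.

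Replicate deviations correlated at 0.0671 between the groups over all genes tested. Counting noise enters each deviation, so this low value cannot exclude a pairing. The titles give only a replicate number. With the replicate number as a block, limma called 6 members lower (Col23a1 added, limma adjusted p = 0.0230), 0 higher, 1 further pathway gene and 229 genes in all (132 lower and 97 higher).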

Other observations

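Neighbouring members gave values side by side that were not part of a comparison. Col4a5 and Col4a6, which lie head to head on chromosome X with 1309 bases between them, had log2 fold changes of 0.23 and 0.05, and Col4a3 and Col4a4 lie 72 bases apart on chromosome 1. Col9a1 and Col19a1, 9206 bases apart on chromosome 1, were at -0.65 and 0.03.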
